A study of Mus musculus with 6 samples.

Results

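The VEGF and angiopoietin ligands are 8 secreted proteins, Vegfa, Vegfb, Vegfc, Vegfd, Pgf, Angpt1, Angpt2 and Angptl4, and were chosen by gene name from the 21966 genes of an RNA-seq table. All 8 have a row in the table, where Vegfd is the gene also called Figf. The RNA-seq compared primary colon tumor cells with and without the Pak inhibitor domain (PID), a peptide that blocks the Group I p21-activated kinases. PID+ cells came from mice with the genotype CDX2P-NLS-Cre;APCΔ/+;ROSA26-PID, in which Cre removes a stop cassette from the Rosa26 allele so that a GST-tagged PID is made together with eGFP. PID- cells came from CDX2P-NLS-Cre;APCΔ/+ mice. Both groups therefore carried 1 deleted allele of Apc and the Cre transgene, which is active in epithelium toward the distal end of the gut. Mice were followed for 8 months, and lines grown from the tumors were kept in medium with serum, so that no group is fresh tissue. The sample labels give 3 PID+ samples, from mice 4, 7 and 26, and 3 PID- samples, from mice 1, 2 and 3, which they call normal and untreated.

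The deposited table held 1 FPKM (the number of fragments, scaled to transcript length and to library size) per gene and condition, calculated by the authors after the reads of the 3 samples of a condition were merged. It held no value per sample. The differences below therefore could not be set against the spread between samples, and p-values are not given. The confidence bounds deposited with each FPKM are given instead, as the interval. These intervals are wide: where the mean FPKM was 10 or more, the upper bound lay above the FPKM by a median of 75.1% in PID+ and 73.9% in PID- cells. The table names its conditions treated and untreated, which were read as PID+ and PID- from the sample labels, and it has no row for the transgene by which this could be checked. Changes are given as log2((FPKM in PID+ + 1)/(FPKM in PID- + 1)), which makes the change of weakly expressed genes look smaller, and a gene was counted as changed when this ratio was at least 3-fold. Numbers of reads were estimated from the steps between the low FPKM values and are approximate for genes with several transcripts. Intervals computed from these reads cover counting error only.

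VEGF ligands are dimeric growth factors that bind receptor tyrosine kinases on endothelial cells. Vegfa, acting mostly through Kdr, drives the sprouting of blood vessels and is induced by low oxygen, and Vegfc and Vegfd act through Flt4 on lymphatic vessels. Vegfb and Pgf bind Flt1. Angiopoietins bind Tek, where Angpt1 stabilizes vessels and Angpt2 can oppose it. Angptl4 is related to the angiopoietins in sequence, does not signal through Tek, and is best known as an inhibitor of lipoprotein lipase. In tumors of the colon, Vegfa made by the tumor cells is a target of approved antibodies.

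Of the 8 ligands, Vegfa was by far the most abundant in both conditions, and Vegfd was the only ligand that differed by at least 3-fold. Vegfd was lower in PID+ cells, and no ligand was at least 3-fold higher. Among the 21959 genes tested, 2.76% differed by at least 3-fold, 1.04% being higher and 1.72% lower in PID+ cells. With 8 ligands, 1 such gene cannot be set apart from this background. The deposited intervals overlapped between the conditions for each of the 8 ligands, whereas they were apart for 0.729% of all genes, 0.187% with the higher and 0.542% with the lower value in PID+ cells. At 2-fold, Vegfd was again the only ligand counted, against 7.08% of all genes, 3.31% being higher and 3.77% lower. Among the 11480 genes whose mean FPKM was 1 or more, 5.28% differed by at least 3-fold (1.99% higher, 3.28% lower), and 5 of the ligands are among these genes. The log2 change was negative for 5 ligands, positive for 2 and 0 for Angpt1, which was listed at 0 in both conditions. Their median was -0.17, beside a median of 0 over all genes tested. Among the 5 ligands whose mean FPKM was 1 or more the median was -0.39, beside -0.007 over all such genes. On equal Gapdh the median of the 8 ligands was -0.75, beside -0.08 over all genes tested. Genes near 0 hardly move under this scaling, since 1 is added to each FPKM. Over the 9341 genes whose mean FPKM was 5 or more, the median on equal Gapdh was -0.58.

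**Figure D1:**
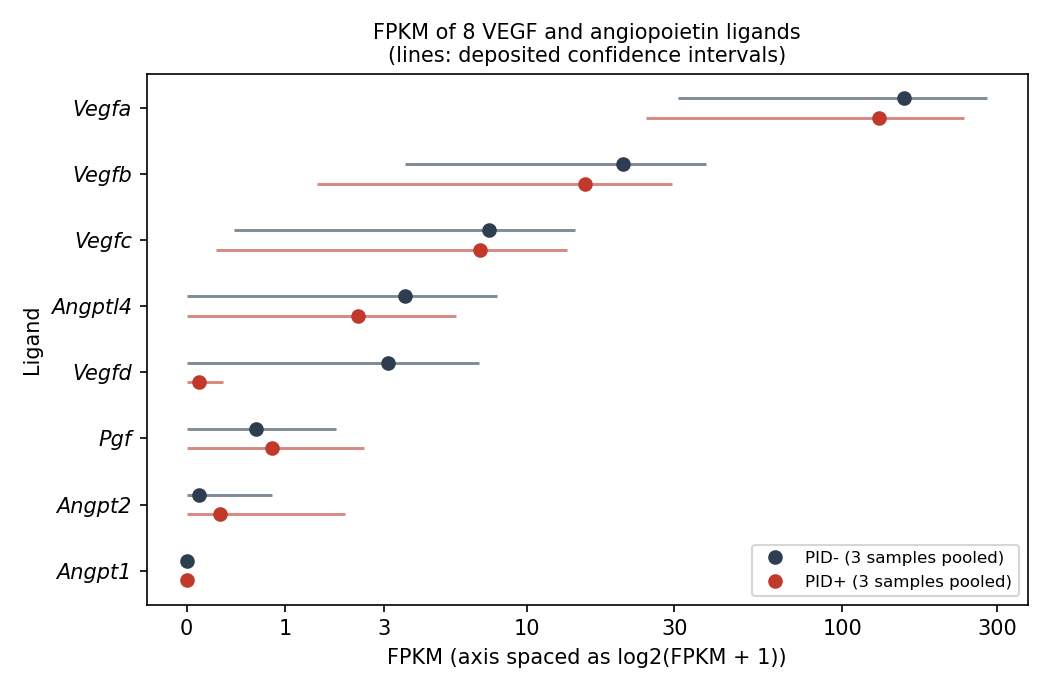
FPKM of the 8 ligands in PID- (dark) and PID+ (red) cells, on an axis spaced as log2(FPKM + 1). Points are the pooled FPKM of 3 samples and lines are the deposited confidence intervals. Vegfa lies highest, at 155 in PID- and 130.3 in PID+ cells, and Vegfd shows the widest distance between the conditions, at 3.12 and 0.0941.

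Vegfa (ENSMUSG00000023951.13) lies on chromosome 17 of GRCm38, from 46016993 to 46032369 on the minus strand, and has 13 annotated transcripts. Its FPKM was 130.3 in PID+ cells, with an interval from 24.3 to 236, and 155 in PID- cells, with an interval from 30.9 to 279.8. At this level 97.2% of all genes lay below it in PID+ and 97.8% in PID- cells. The log2 change was -0.25, and each interval contained the FPKM of the other condition. The sign depended on none of the scalings tried, although the change was -0.87 on equal Gapdh. Gapdh itself had 2570 FPKM (PID+) against 1666 FPKM (PID-), and scaling it to equality gave a shift of -0.58 in the median of the 9341 genes whose mean FPKM was 5 or more, about the size of the shift of Vegfa. The table does not separate the splice forms of Vegfa, which differ in how strongly the protein is held by heparan sulfate.

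Vegfb and Vegfc followed at lower levels. Vegfb (ENSMUSG00000024962.10, chromosome 19 from 6982473 to 6987651, minus strand), a ligand of Flt1 with little effect on sprouting, had an FPKM of 15.5 in PID+ cells (interval 1.5 to 29.5) and 20.7 in PID- cells (interval 3.64 to 37.7). Its log2 change was -0.39, and the intervals overlapped over most of their length. Vegfc (ENSMUSG00000031520.5, chromosome 8 from 54077606 to 54187096, plus strand), the main growth factor of lymphatic vessels, had an FPKM of 6.88 in PID+ cells (interval 0.233 to 13.5) and 7.40 in PID- cells (interval 0.400 to 14.4). The log2 change of Vegfc was -0.09, and it became 0.03 when the median change of its chromosome was subtracted. For both genes the difference between the conditions was small beside the width of the intervals.

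Vegfd (ENSMUSG00000031380.10) lies on chromosome X, from 164373378 to 164402650 on the plus strand, and encodes a second ligand of Flt4. Its FPKM was 0.0941 in PID+ cells, with an interval from 0 to 0.293, and 3.12 in PID- cells, with an interval from 0 to 6.81. The log2 change was -1.91 on FPKM + 1. The FPKM itself was 33.1-fold lower in PID+ cells. It corresponds to about 12 reads in PID+ and 544 in PID- cells, and the counting error of these reads gives a 95% interval of the fold from 18.5 to 63.4. The 2 deposited intervals overlap since both reach down to 0, but the upper bound in PID+ cells lies below the FPKM in PID- cells. Genes on chromosome X had a median log2 change of -0.45 (286 genes), and with this median subtracted the change of Vegfd was -1.46, short of 3-fold. Adding 0.1 instead of 1 to the FPKM gave -4.05.

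Pgf (ENSMUSG00000004791.6, chromosome 12 from 85166635 to 85177790, minus strand), first known from placenta, was low. Its FPKM was 0.827 in PID+ cells (interval 0 to 2.49) and 0.631 in PID- cells (interval 0 to 1.87), or about 105 and 112 reads. The log2 change was 0.16, and -0.09 on equal Gapdh. For Pgf, the counting error of these reads gives a 95% interval of the FPKM ratio (PID+ over PID-) from 0.991 to 1.72. The 4 VEGF genes and Pgf together summed to 153.6 FPKM (PID+) against 187 FPKM (PID-). Vegfa made up 84.8% of this sum in PID+ and 83.0% in PID- cells, Vegfb 10.1% and 11.04%, and Vegfc 4.48% and 3.96%. Vegfd made up 0.0613% and 1.67%, and Pgf 0.538% and 0.337%. Vegfa thus held the largest share in both conditions.

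The angiopoietins were at or near the floor of the table. Angpt1 (ENSMUSG00000022309.8, chromosome 15 from 42424723 to 42676977, minus strand), the agonist of Tek that pericytes usually supply, was listed at 0 in both conditions. Each of 72 ribosomal protein genes had an FPKM of at least 322, so that zeros were not spread over genes that every cell uses. The 3 reads that a count of 0 allows correspond, for Angpt1, to at most 0.0110 FPKM (PID+) and 0.00787 FPKM (PID-). The gene overlaps Gm17473 in the annotation. Angpt2 (ENSMUSG00000031465.6, chromosome 8 from 18690263 to 18741562, minus strand), which endothelial cells store and release, had an FPKM of 0.262 in PID+ cells (interval 0 to 2.06) and 0.0911 in PID- cells (interval 0 to 0.825). These values rest on about 59 and 29 reads, and the log2 change of 0.21 was 0.92 when 0.1 was added in place of 1. The FPKM itself was 2.88-fold higher in PID+ cells, and the counting error gives a 95% interval of this fold from 1.79 to 4.59. Angpt2 overlaps Mcph1, which had 10.02 FPKM (PID+) against 11.6 FPKM (PID-), and since the library kit does not mark strand, reads of the pair cannot be told apart by strand.

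Angptl4 (ENSMUSG00000002289.12, chromosome 17 from 33773750 to 33781830, minus strand), whose transcription is induced by fatty acids through PPARs and by low oxygen, had an FPKM of 2.35 in PID+ cells (interval 0 to 5.65) and 3.65 in PID- cells (interval 0 to 7.89). Its log2 change was -0.47, and the intervals overlapped. In PID- cells the order from high to low FPKM was Vegfa, Vegfb, Vegfc, Angptl4, Vegfd, Pgf, Angpt2 and Angpt1. In PID+ cells the order was the same except that Vegfd stood after Angpt2. Vegfa was 8.40 times as abundant as Vegfb in PID+ and 7.52 times in PID- cells, yet the intervals of neighbours in this order overlapped in each case.

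The genes nearest to a ligand in both conditions were looked up for Vegfd and Angptl4, as the ligands with the largest absolute log2 changes among those with an FPKM of at least 1. Nearness was the Euclidean distance in log2(FPKM + 1) over the 2 conditions. Nearest to Vegfd were Gm16505, Twist2 and Lipo1, at distances of 0.07, 0.07 and 0.08. Twist2, which encodes a transcription factor of mesenchymal cells, had 0.0882 FPKM (PID+) against 3.33 FPKM (PID-). Nearest to Angptl4 were 1700037C18Rik, Senp8 and B230118H07Rik, at distances of 0.02, 0.05 and 0.05. With 2 pooled values per gene, this nearness describes the levels alone.

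Of the 8 ligands, 5 have a promoter in the RefSeq table used (GRCm38.p6), and the sequences of Vegfa and Vegfd are shown, as the most abundant ligand and the ligand that differed by at least 3-fold. In the 250 bases before the start, the GC content was 59.2% for Vegfa and 42.4% for Vegfd, beside a median of 52.4% over 32851 promoters, of which 16.9% had a lower GC content than Vegfd. The letters GGGCGG and TATAAA were searched on both strands and are in capitals. GGGCGG occurs in 32.7% and TATAAA in 12.4% of all promoters of this length. Vegfa has 2 promoters in the table, and the upstream one is shown. This promoter of Vegfa (chr17:46032378-46032627, minus strand) has GGGCGG at 72 and 62 bases before the start and no TATAAA. The promoter of Vegfd (chrX:164373272-164373521, plus strand) has TATAAA at 73 bases before the RefSeq start and no GGGCGG. Gencode starts Vegfd further upstream, so that 144 of these 250 bases lie within the gene as placed above, and TATAAA lies 71 bases after that start. The core letters of sites bound by HIF were searched in the same way, as ACGTG, found in 16.6% of all promoters, or as GCGTG, found in 28.2%. Neither is in the 2 windows shown, but the second window of Vegfa (chr17:46025164-46025413), which lies within the gene, its RefSeq start being 7206 bases after the Gencode start, has the former at 211 and the latter at 218 bases before that RefSeq start.
Vegfa: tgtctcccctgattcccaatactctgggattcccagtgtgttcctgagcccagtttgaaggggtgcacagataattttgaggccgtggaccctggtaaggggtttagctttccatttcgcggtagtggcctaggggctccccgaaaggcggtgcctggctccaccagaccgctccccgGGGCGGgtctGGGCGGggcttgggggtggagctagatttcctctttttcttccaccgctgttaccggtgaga
Vegfd: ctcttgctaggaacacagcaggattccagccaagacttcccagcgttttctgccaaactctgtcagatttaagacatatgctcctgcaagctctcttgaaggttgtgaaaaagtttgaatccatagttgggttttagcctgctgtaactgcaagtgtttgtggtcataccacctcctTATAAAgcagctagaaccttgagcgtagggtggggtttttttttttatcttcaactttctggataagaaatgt

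The 5 receptors and co-receptors of the VEGF ligands were all detected. Flt1 was the only gene among them that differed by at least 3-fold on FPKM + 1, beside 2.76% of all genes. Flt1 (ENSMUSG00000029648.10, chromosome 5 from 147561604 to 147726011), which binds Vegfa, Vegfb and Pgf and also exists as a soluble decoy, had an FPKM of 1.02 in PID+ cells (interval 0 to 2.34) and 8.67 in PID- cells (interval 2.87 to 14.5). The log2 change of Flt1 was -2.26, and the intervals were apart. Kdr, the main signaling receptor for Vegfa, had an FPKM of 3.33 in PID+ cells (interval 0.561 to 6.10) and 1.01 in PID- cells (interval 0 to 2.18). Its log2 change was 1.11, at least 2-fold but not 3-fold, or 1.62 and past 3-fold with 0.1 added in place of 1, and short of 2-fold on equal Gapdh (0.65), and the intervals overlapped. Flt4, the receptor of Vegfc and Vegfd, had 9.71 and 8.34, a log2 change of 0.20, and of -0.36 on equal Gapdh. The neuropilins, co-receptors shared with semaphorins, were the most abundant of the 5. Nrp1 had 36.7 FPKM (PID+) against 24.1 FPKM (PID-), a log2 change of 0.59 (-0.02 on equal Gapdh). Nrp2 had 18.6 and 26.1, a log2 change of -0.47 (-1.05 on equal Gapdh). The 5 genes together summed to 69.3 FPKM (PID+) against 68.2 FPKM (PID-).

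The receptors of the angiopoietins were near the floor as well. Tek had 0.0168 FPKM (PID+) against 0.0149 FPKM (PID-), on about 5 and 6 reads, and Tie1, its partner receptor, had 0.132 and 0.0489. Ptprb, the phosphatase that acts on Tek and on Kdr complexes in endothelium, was different. It had an FPKM of 14.7 in PID+ cells (interval 6.58 to 22.9) and 0.0244 in PID- cells (interval 0 to 0.0724), a log2 change of 3.94. Ptprb was thus high in PID+ cells in which Tek was nearly undetectable.

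Of 7 further angiopoietins and angiopoietin-like proteins, which are related to Angptl4, 2 were at least 3-fold lower with PID and none higher. With 0.1 added in place of 1, 3 were lower. Of all genes, 1.72% were lower and 1.04% higher, or 3.62% and 2.83% with 0.1 added. The median log2 change of the 7 was -0.14. Angptl2 (ENSMUSG00000004105.7), a secreted protein linked to inflammation and fibrosis, had an FPKM of 0.662 in PID+ cells (interval 0 to 3.01) and 18.1 in PID- cells (interval 4.33 to 31.9). Its log2 change was -3.52, with intervals apart. Angptl2 overlaps Ralgps1, which had 10.8 FPKM (PID+) against 6.36 FPKM (PID-), and the part of overlapping reads in these values was not tested. Angptl8, a secreted regulator of plasma lipids, had 0.0215 and 5.65, a log2 change of -2.70. This FPKM rests on about 1 read in PID+ and 362 in PID- cells, the intervals overlapped, and the gene overlaps Dock6, at 1.80 FPKM and 2.40 FPKM. PDGF ligands and receptors, which recruit pericytes to vessels, showed 0 of 6 genes changed by 3-fold, beside 2.76% of all genes. Pdgfa led them, at 37.1 FPKM (PID+) against 49.7 FPKM (PID-). The receptors were low, with Pdgfra at 0.188 and 0.243 and Pdgfrb at 0.0896 and 0.987, on about 32 and 484 reads. With 0.1 added in place of 1, Pdgfrb was past 3-fold (-2.52).

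**Figure D2:**
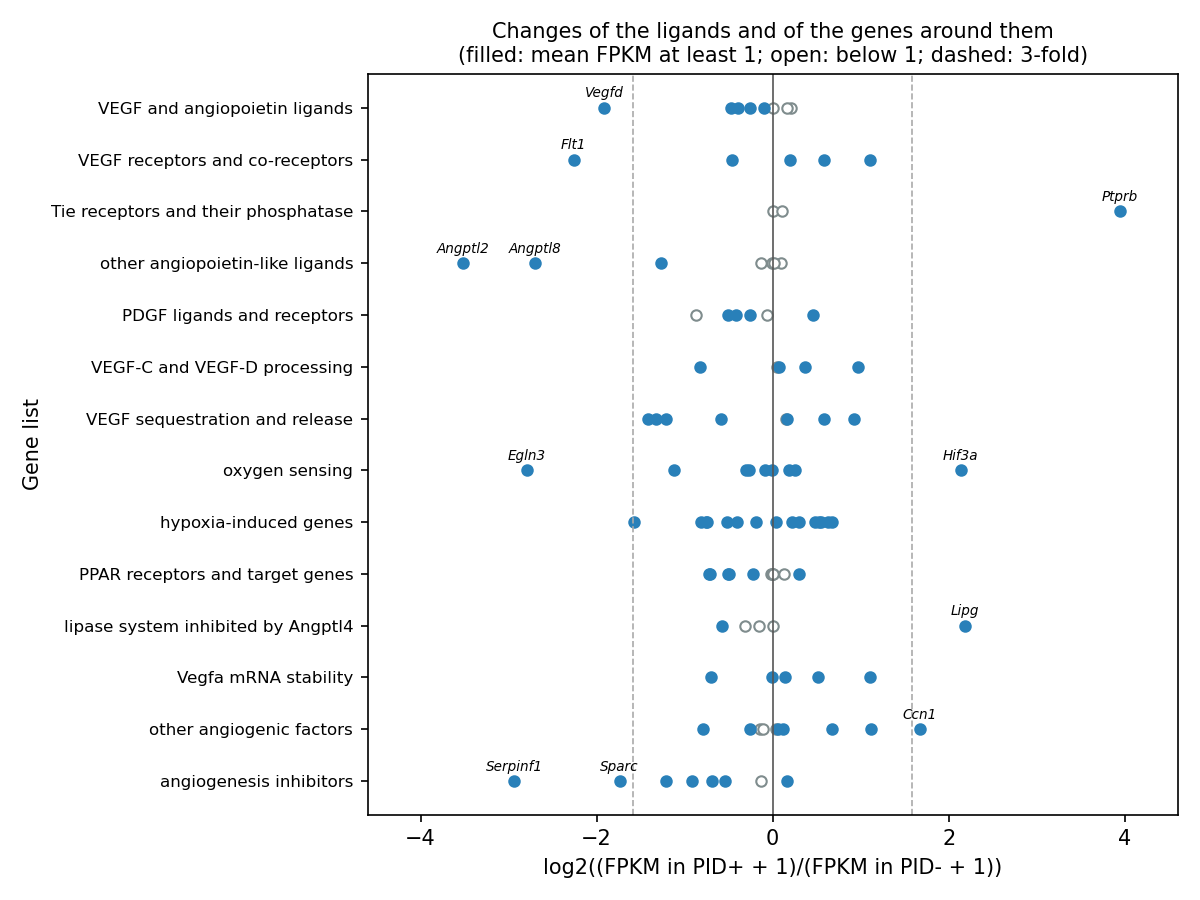
Log2 change (FPKM + 1, PID+ over PID-) of each gene in the ligand list and in 13 lists of genes around the ligands. Each point is 1 gene with 1 pooled value per condition, filled where the mean FPKM was at least 1, and dashed lines mark 3-fold. Genes past 3-fold are named, from Ptprb at 3.94 to Angptl2 at -3.52.

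The proteins that cleave Vegfc and Vegfd into their active forms, or that hold and release VEGF, did not reach a 3-fold difference in either direction on FPKM + 1. Ccbe1, a secreted cofactor in the cleavage of Vegfc, was abundant, with an FPKM of 103 in PID+ cells (interval 38.5 to 168) and 52.4 in PID- cells (interval 19.6 to 85.2), a log2 change of 0.97, and of 0.35 on equal Gapdh. The median of the 5 processing genes was 0.08. Among 8 genes of sequestration and release the median was -0.22 and 3 genes were at least 2-fold lower, against 3.77% of all genes. Of these 3, Hspg2, which encodes the heparan sulfate proteoglycan perlecan, had 3.93 FPKM (PID+) against 12.2 FPKM (PID-), a log2 change of -1.42. The other 2, named after their values were seen, were the heparan sulfate cleaving enzyme Hpse (-1.33) and the matrix protein Thbs2 (-1.21), both with an FPKM below 5. With 0.1 added in place of 1 all 3 were past 3-fold (-1.61, -2.06 and -2.46), and on equal Gapdh Hspg2 was (-1.89). Thbs1, a matrix protein that binds VEGF and inhibits vessel growth, was the most abundant member, with 344 and 306.

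The 9 genes that sense oxygen set the transcription of Vegfa and Angptl4 in many tissues. Of these, 1 was at least 3-fold higher and 1 at least 3-fold lower, beside 1.04% and 1.72% of all genes. Egln3 (ENSMUSG00000035105.5, chromosome 12 from 54178981 to 54203860), a prolyl hydroxylase that marks HIF for destruction and is itself induced by HIF, had an FPKM of 8.59 in PID+ cells (interval 1.68 to 15.5) and 65.6 in PID- cells (interval 28.8 to 102). Its log2 change was -2.80, with intervals apart. Hif1a, the most abundant of the 9, had 65.6 FPKM (PID+) against 144 FPKM (PID-), a log2 change of -1.12 with overlapping intervals, and of -1.74 on equal Gapdh, where 2 genes of the list were at least 3-fold lower. Hif3a, named after its values were seen, had 3.83 and 0.0989, a log2 change of 2.14. The median of the list was -0.09.

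Of 15 genes that low oxygen induces in many cells, 0 differed by at least 3-fold, beside 2.76% of all genes. The log2 change was positive for 8 and negative for 7 of the 15, and the median was 0.03. On equal Gapdh, 2 were positive and 13 negative, with a median of -0.58. The median of all genes whose mean FPKM was 5 or more was also -0.58 on this scaling. Ndrg1 came closest to 3-fold, with 24.5 FPKM (PID+) against 75.1 FPKM (PID-) and a log2 change of -1.58, and it passed 3-fold on equal totals, on equal Gapdh, with 0.1 added in place of 1 and with the chromosome median subtracted. Ldha, the most abundant over both conditions though below Pgk1 in PID- cells, had 838 FPKM (PID+) against 599.5 FPKM (PID-), a log2 change of 0.48, and of -0.14 on equal Gapdh. Vegfa lay within the range of these genes. Proteins that bind the Vegfa mRNA and set its stability showed 0 of 5 genes at 3-fold, beside 2.76% of all genes. Zfp36, which promotes the decay of AU-rich mRNAs, had 28.7 FPKM (PID+) against 12.8 FPKM (PID-), a log2 change of 1.11 (0.51 on equal Gapdh). Hnrnpl, the most abundant, had 237 and 165, a log2 change of 0.52 (-0.10 on equal Gapdh).

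PPAR receptors and their targets, the other known input to Angptl4, showed 0 of 11 genes changed by 3-fold or 2-fold. Of all genes, 2.76% and 7.08% differed by these folds. Only 6 of the 11 had a mean FPKM of 1 or more, and 3-fold on FPKM + 1 needs such a mean. Of the receptors, Ppard had 10.7 FPKM (PID+) against 18.3 FPKM (PID-), Pparg 4.31 and 7.69, and Ppara 0.0975 and 0.00657. Plin2, a lipid droplet protein and the most abundant of them, had 143 FPKM (PID+) against 116 FPKM (PID-), a log2 change of 0.30, and of -0.32 on equal Gapdh. Of the 5 genes of the lipase system that Angptl4 inhibits, Lipg was at least 3-fold higher, beside 1.04% of all genes. This endothelial lipase had an FPKM of 7.51 in PID+ cells (interval 1.89 to 13.1) and 0.869 in PID- cells (interval 0 to 1.99), a log2 change of 2.19 with overlapping intervals. Lmf1, a chaperone of lipases, was the most abundant over both conditions, with 7.40 and 11.5.

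Over the 94 genes of the 13 lists besides the ligands, 4 were at least 3-fold higher with PID and 6 at least 3-fold lower, beside 1.04% and 1.72% of all genes (1.99% and 3.28% of those whose mean FPKM was 1 or more). On equal Gapdh, 3 were higher and 9 lower, beside 0.346% and 3.01% of all genes (3.36% in either direction). With 0.1 added in place of 1, 5 were higher and 12 lower, beside 2.83% and 3.62% (6.45% in either direction). The lists were made up of genes of known relevance to angiogenesis and not drawn at random, so their shares are given as counts.

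Markers of other cells were read beside the ligands, since endothelial cells, pericytes and fibroblasts are usual sources of Angpt1, Angpt2 and Vegfd. In bulk RNA, fewer cells of a type and less RNA per cell cannot be told apart. Of 14 endothelial markers, 0 differed by at least 3-fold, beside 2.76% of all genes. Only 3 of the 14 had a mean FPKM of 1 or more, which 3-fold on FPKM + 1 needs. Of all genes with such a mean, 5.28% differed by at least 3-fold. The 2 markers Kdr and Sox17 were at least 2-fold higher with PID, beside 3.31% of all genes. Neither was on equal Gapdh (0.65 and 0.49). With 0.1 added in place of 1, Kdr and Cdh5 (1.64, on about 56 reads against 1) were past 3-fold. Most of these markers were near or at 0, with Cldn5 and Erg listed at 0 in both conditions, Pecam1 at 0.0960 FPKM (PID+) against 0.0931 FPKM (PID-), and Cdh5 at 0.219 and 0.00279. Besides Kdr and Sox17, only Egfl7 had a mean FPKM above 1, with 11.4 FPKM (PID+) against 8.82 FPKM (PID-), and it overlaps Agpat2, at 83.5 and 50.8. The list summed to 81.5 FPKM (PID+) against 40.6 FPKM (PID-), of which Sox17, the most abundant and also a gene of endoderm, made up 65.6 and 29.97. Over all genes, 1.72% were at least 3-fold lower with PID and 1.04% higher. Of 11 fibroblast and pericyte markers, 4 were at least 3-fold lower with PID and none higher. They were Col1a2, with 0.0654 FPKM (PID+) against 11.9 FPKM (PID-), Col3a1, with 0.339 and 6.35, Col1a1, with 2.32 and 11.9, and Dcn, listed at 0 in PID+ and with 2.39 in PID- cells. The list summed to 10.7 FPKM (PID+) against 44.6 FPKM (PID-), and Lum was listed at 0 in both conditions. Col1a1 was its most abundant gene over both conditions, though below Acta2 in PID+ and narrowly below Col1a2 in PID- cells. Acta2 had 4.39 FPKM (PID+) against 9.76 FPKM (PID-). Notch3 went the other way, with 3.30 FPKM (PID+) against 0.998 FPKM (PID-), a log2 change of 1.11, past 3-fold (1.63) with 0.1 added in place of 1 and short of 2-fold (0.65) on equal Gapdh. Vegfd and Angptl2 were thus lower in the condition in which collagen mRNAs were lower, and the part of these markers in the result was not tested. Of 10 intestinal epithelial markers, 2 were at least 3-fold higher and 1 at least 3-fold lower with PID, beside 1.04% and 1.72% of all genes. The higher ones were Epcam, with 401 FPKM (PID+) against 124 FPKM (PID-), and Cldn7, with 274 and 79.4, and on equal Gapdh neither reached 3-fold (1.06 and 1.15), nor did Epcam on equal totals (1.58). At 2-fold 6 were higher, beside 3.31% of all genes. The other 4 were Cdh1 (192 and 88.0), Krt8 (2745 and 1319), Krt18 (2843 and 1199) and Krt20 (158 and 73.5). None of these 4 reached 2-fold on equal Gapdh, nor did Krt8 and Krt20 on equal totals, and the median of the list was 1.08, or 0.45 on equal Gapdh. Krt19 had 2469 and 2073, a log2 change of 0.25, and of -0.37 on equal Gapdh. Vil1, a marker of the intestinal brush border, was at 0.175 and 0.0614, Lgals4 at 1.86 and 3.43 (log2 change -0.63). Cdx2, the gene at least 3-fold lower, was at 0.542 and 8.04.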

How the data were processed

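Libraries were poly A selected. Per the methods, the authors trimmed adapters (CutAdapt), mapped to GRCm38.p3 with protein coding annotation (TopHat), pooled the 3 samples of a condition into a single alignment, and obtained the deposited FPKM and its confidence bounds from CuffDiff. These bounds cover CuffDiff's error model, and their confidence level is not given in the sources used here. The labels name 3 mice per condition where the methods speak of replicated runs, and the study numbers its PID- cells otherwise than the labels do.

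In 7 of 21966 genes a condition was not marked OK, and 21959 were used. A symbol was matched for 21734 identifiers, and Gencode M21 (GRCm38) gave positions, transcripts and overlaps. Since the kit does not mark strand, values are less certain for genes that overlap others, among them Nrp1, Nrp2, Ptprb, Pdgfa, Ccbe1, Hspg2, Thbs1, Hif1a, Hif3a, Ndrg1, Zfp36, Hnrnpl, Col1a2, Col3a1, Sox17, Krt8, Vil1, Cdh5, Notch3, Pdgfra, Pparg, Itga2b, Edn1 and Mcpt8. To estimate reads, the step was taken that left most values of single-transcript genes within 0.1 of a whole number (92.4% of 643 genes in PID+ and 92.2% of 615 in PID-, against 20% without steps), after a length correction of 180 bases, the best of 31. Per read, the FPKM was 1.39 times as large in PID+ cells, a ratio of depth and scaling together, so the depth itself is unknown. Chromosome medians were taken over genes whose mean FPKM was 5 or more.

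The members and lists were chosen with earlier results of these data known. Named genes were the 8 ligands, all receptors in the lists, the most abundant member of each list, members with an FPKM of at least 5 in a condition that differed by at least 2-fold, and cell type markers. Others are said to be named after their values were seen. The settings varied were the pseudocount (0.1), the scaling (to equal totals, upper quartiles or Gapdh), subtraction of chromosome medians, a minimum mean FPKM of 1, and the call rule (2-fold, or intervals apart). The calculations were tested on simulated data. Work was done in Python (3.11.15) with pandas (2.3.3), numpy (2.4.6) and scipy (1.17.1), and figures were drawn with matplotlib (3.10.9).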

Additional observations from a re-analysis of the deposited data

How the results depend on the processing

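Among the ligands' log2 changes and the counts of changed ligands and list genes, 57 values under the alternatives stayed within 1.5-fold of those reported, and 6 did not. With a pseudocount of 0.1, the log2 change was -4.05 for Vegfd and 0.92 for Angpt2, since a smaller pseudocount widens the change of low values, and 12 in place of 6 list genes were at least 3-fold lower. With equal Gapdh, the log2 change of Vegfa was -0.87, as the factor lowers every gene in PID+ cells. The count of ligands at least 3-fold lower was 0 in place of 1 with the chromosome median subtracted, and 0 when deposited intervals had to be apart. The ligand concerned was Vegfd, at -1.46 with the median of chromosome X (-0.45) subtracted. Its deposited intervals both reach down to 0 and so cannot be apart. Of the single genes and single lists, 85 values moved by more than this and 751 did not. No log2 change of at least 3-fold changed sign under the alternatives tried. Leaving out genes below a mean FPKM of 1 cannot change the counts at 3-fold, since 3-fold on FPKM + 1 needs such a mean. Only the share over all genes changes, to 5.28% of 11480 genes. No paired analysis was possible because the table holds pooled values without sample numbers, and the mouse numbers differ between the groups. For the same reason no sample could be left out in turn.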

Other observations

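Beyond the VEGF and angiopoietin ligands, 10 other angiogenic factors were read. At least 3-fold higher with PID was 1 of them, and none was lower, beside 1.04% and 1.72% of all genes. Ccn1, a matricellular protein that binds integrins, was the most abundant of them, with an FPKM of 165 in PID+ cells (interval 75.7 to 255) and 51.2 in PID- cells (interval 21.3 to 81.1). Its log2 change of 1.67 was short of 3-fold with equal total FPKM (1.57), with equal Gapdh (1.05) and with the chromosome median subtracted (1.42). Edn1, the vasoconstrictor endothelin, had 11.03 and 4.53, a log2 change of 1.12 (0.56 on equal Gapdh). Ccn1 exceeded Vegfa in PID+ but not in PID- cells on the FPKM scale.

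Of 8 angiogenesis inhibitors, 2 were at least 3-fold lower with PID and none was higher, beside 1.72% and 1.04% of all genes. With 0.1 added in place of 1, 3 were lower, beside 3.62%. The log2 change was negative for 7, with a median of -0.80. Serpinf1, which encodes PEDF, had an FPKM of 0.853 in PID+ cells (interval 0 to 2.22) and 13.2 in PID- cells (interval 0 to 28.3), a log2 change of -2.94. Sparc, a matrix protein that binds VEGF, had 10.5 and 37.3, a log2 change of -1.74. The intervals of both overlapped between the conditions. Both are also expressed by fibroblasts, whose markers summed to 10.7 FPKM (PID+) against 44.6 FPKM (PID-), and the part of these in the result was not tested. Thbs1, the most abundant inhibitor, had a log2 change of 0.17, and of -0.46 on equal Gapdh.

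Blood cell markers were mostly near 0, with Ppbp, Mcpt8, Cd68 and Itga2b (1.19 and 2.08) as those whose mean FPKM was 1 or more. Among all genes, 1.04% were at least 3-fold higher in PID+ cells. Of 9 haematopoietic markers, Cd68 alone had a mean FPKM of at least 1, with 21.8 FPKM (PID+) against 16.8 FPKM (PID-), and Ptprc had 0.0264 and 0.00811. Of 6 platelet and megakaryocyte markers, Ppbp was the only gene at least 3-fold higher in PID+ cells, with 2321 FPKM (PID+) against 231 FPKM (PID-), a log2 change of 3.32 and intervals apart, while Pf4 had 0.947 and 0.372. Of 7 mast cell and basophil markers, Mcpt8 was the only gene at least 3-fold higher, with 82.5 and 9.60, a log2 change of 2.98 and intervals apart, while Cpa3, Tpsb2, Fcer1a and Ms4a2 were listed at 0 in both conditions.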
